A study of Mus musculus with 2 samples.

Results

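A set of 10 genes that set epithelial against mesenchymal character was followed in CD45-negative cells of tumours grown in mice without and with Mtdh. They are the keratins Krt7, Krt8, Krt18 and Krt19, the junction genes Cldn4 and Tjp1, the adhesion genes Cdh1 and Epcam, and the mesenchymal genes Cdh2 and Vim. They were chosen by gene name, with earlier results of these libraries known. All 10 were found among the 12707 protein-coding genes of the deposited table. Both groups received Py8119 cells, a mouse mammary tumour line from the MMTV-PyMT model with mesenchymal character, and the labels give the injected cells as wild type for Mtdh in both. The hosts were Mtdh knockout (KO) mice and Mtdh wild-type (WT) mice, with 1 library each, so every difference describes this pair of libraries and has no replicate check. The labels give no number of tumours behind a library and no strain, sex or age of the mice, and do not say how Mtdh was removed. Live CD45-negative cells were sorted, a gate that keeps tumour cells together with any fibroblasts, vessel cells and other non-leukocytes of the host, and in such a bulk library fewer cells of a type and less RNA per cell cannot be told apart.

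Keratins form the intermediate filaments of epithelial cells, in which a type II keratin (Krt7, Krt8) pairs with a type I keratin (Krt18, Krt19). Claudins such as Cldn4 seal tight junctions, Tjp1 (ZO-1) is the scaffold beneath them, Cdh1 (E-cadherin) holds adherens junctions together, and Epcam is an adhesion protein of epithelial cells. Cells that lose epithelial character replace keratins with the filament protein vimentin (Vim) and E-cadherin with N-cadherin (Cdh2), and mammary tumour cells can hold both sets at once.

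The library from the KO host had more Cldn4, Krt8 and Krt18 reads than the library from the WT host. Vim and Cdh2 RPM (recovered reads scaled to a library total of 1000000) were nearly the same in both. Cldn4 had the largest ratio of the 9 genes for which one can be given, at 3.48-fold higher, and the paired keratins Krt8 and Krt18 were 1.42-fold and 1.57-fold higher. Vim was at 0.917 and Cdh2 at 1.04 times the level of the WT host library. Tjp1 went the other way from Cldn4, at 0.676 times. Krt19, Epcam and Cdh1 were also higher but had few reads, and Krt7 was listed at 0 in the WT host library. In the deposited values, 8 of the 10 differences were above 0 and 2 were below, against 5981 above 0 (47.1%) and 6726 below among all 12707 genes. Because the genes were chosen with earlier results known, this sign count describes them and carries no test.

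Promoters of 4 genes that were higher in the KO host library, and of Vim for contrast, are shown to set their motifs side by side. RefSeq promoters (build GRCm38.p6) were matched by symbol for 7 of the 10 genes, and the 250 bases before the start of transcription are printed 5′ to 3′. Capitals mark CACCTG or its reverse complement CAGGTG, the E-box that ZEB and SNAI repressors bind, and TGANTCA, the AP-1 motif, which reads the same on both strands.
Cldn4 promoter (GRCm38.p6, chr5:134946935-134947184, minus strand): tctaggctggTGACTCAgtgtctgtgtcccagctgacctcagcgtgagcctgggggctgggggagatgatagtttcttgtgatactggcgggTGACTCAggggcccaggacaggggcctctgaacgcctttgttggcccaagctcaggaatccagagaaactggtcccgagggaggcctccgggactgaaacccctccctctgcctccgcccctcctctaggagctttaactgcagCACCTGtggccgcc
Krt8 promoter (GRCm38.p6, chr15:102004343-102004592, minus strand): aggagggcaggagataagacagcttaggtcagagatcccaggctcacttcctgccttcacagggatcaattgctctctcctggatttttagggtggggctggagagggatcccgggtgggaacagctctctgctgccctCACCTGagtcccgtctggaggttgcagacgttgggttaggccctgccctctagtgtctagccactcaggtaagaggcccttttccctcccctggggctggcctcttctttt
Krt18 promoter (GRCm38.p6, chr15:102027966-102028215, plus strand): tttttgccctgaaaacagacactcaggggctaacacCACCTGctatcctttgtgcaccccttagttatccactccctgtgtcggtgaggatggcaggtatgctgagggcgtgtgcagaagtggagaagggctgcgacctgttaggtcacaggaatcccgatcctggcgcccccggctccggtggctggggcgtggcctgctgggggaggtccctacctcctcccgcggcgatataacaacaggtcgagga
Epcam promoter (GRCm38.p6, chr17:87635729-87635978, plus strand): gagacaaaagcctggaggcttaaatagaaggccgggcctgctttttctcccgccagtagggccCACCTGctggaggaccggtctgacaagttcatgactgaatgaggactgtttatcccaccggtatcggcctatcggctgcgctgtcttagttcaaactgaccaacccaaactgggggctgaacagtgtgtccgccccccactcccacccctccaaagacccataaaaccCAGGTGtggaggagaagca
Vim promoter (GRCm38.p6, chr2:13574061-13574310, plus strand): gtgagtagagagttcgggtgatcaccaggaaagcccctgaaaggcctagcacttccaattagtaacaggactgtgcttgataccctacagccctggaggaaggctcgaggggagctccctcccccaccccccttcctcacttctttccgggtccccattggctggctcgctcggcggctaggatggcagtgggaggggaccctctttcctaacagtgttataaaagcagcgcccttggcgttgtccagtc

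The E-box letters were found in 5 of the 7 promoters, those of Cldn4, Krt7, Krt8, Krt18 and Epcam, and not in the windows of Tjp1 and Vim. Across all 32851 promoters of the same length, 17.2% held them. The Epcam window had 2 of them, first bases 187 and 19 before the start, and the Cldn4 window had 1, at 14. The AP-1 letters occurred in the Cldn4 window alone of the 7, at 240 and 158 bases before the start, against 6.75% of all promoters. The letters TTCNNNGAA, which STAT factors bind, were in 0 of the 7 windows and in 7.02% of all promoters. The search found no overlap between the E-box and AP-1 matches, and a match is a description of the letters only. The motifs were chosen after the sequences had been seen, so these counts carry no test. A link between the motifs and the read ratios was not tested.

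Levels were compared between genes per kilobase of exon, as RPM divided by the union of annotated exons. On this scale Vim was highest, at 1325 in the KO host library and 1446 in the WT host library. Krt8 followed in both, at 88.5 in the KO host library and 62.1 in the WT host library. The next places differed: Krt18 at 69.6 stood above Cdh2 at 52.8 in the KO host library, while Cdh2 at 50.8 stood above Krt18 at 44.3 in the WT host library. Tjp1 was at 21.7 in the KO host library and 32.1 in the WT host library, and Cldn4 at 18.4 in the KO host library and 5.30 in the WT host library. The lowest levels were those of Krt19 (7.35 in the KO host and 2.43 in the WT host), Epcam (3.13 in the KO host and 1.02 in the WT host), Cdh1 (1.94 in the KO host and 1.16 in the WT host) and Krt7 (0.543 in the KO host, listed at 0 in the WT host). With 1 library per group, no spread between samples is available to say which neighbours in this order differ. Vimentin RNA exceeded the 4 keratins together 7.99-fold in the KO host library and 13.3-fold in the WT host library per kilobase of exon, and the epithelial adhesion genes Cdh1 and Epcam were low in both.

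**Figure D1:**
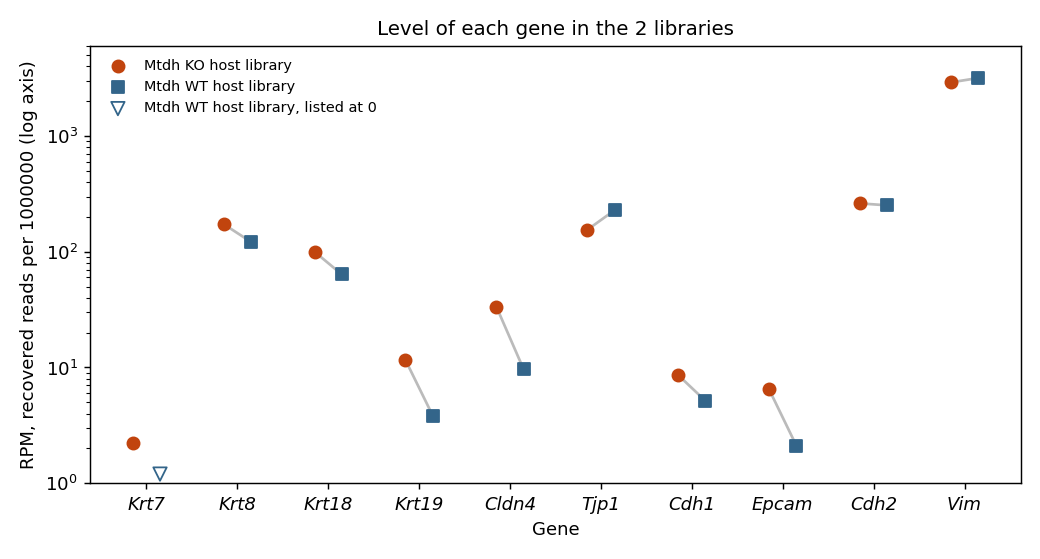
RPM (recovered reads scaled to 1000000 per library, log axis) of the 10 genes, with circles for the Mtdh KO host library, squares for the Mtdh WT host library and an open triangle for the value listed at 0. Krt8, Krt18, Krt19 and Cldn4 sit higher in the KO host library, Tjp1 sits lower, and Vim, at 2907 and 3170 RPM in the KO and WT host libraries, is highest in both.

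The keratins Krt8 and Krt18 supplied most of the keratin RNA. Krt8 (ENSMUSG00000049382, mm39 chromosome 15, 101905133 to 101912918, minus strand) had 4050 reads in the KO host library and 3172 in the WT host library, which is 173.2 RPM in the KO host library and 121.7 RPM in the WT host library. Its ratio was 1.42 (95% counting interval 1.36 to 1.49). Krt18, its type I partner, lies 23697 bases away on the opposite strand of the same chromosome, at 101936615 to 101940463. It had 2339 reads in the KO host library and 1659 in the WT host library, a ratio of 1.57 (1.48 to 1.68). Together they made up 95.2% of the reads of the 4 keratins in the KO host library and 98.0% in the WT host library. Of 2487 genes with 3000 to 10000 reads, 1.81% were 2-fold or more higher in the KO host library and 1.37% were 2-fold or more lower. Both keratins lay above the 90th percentile of these genes, a log2 ratio of 0.49, with log2 read ratios of 0.51 for Krt8 and 0.65 for Krt18. The quotient of Krt8 to Krt18 reads was 1.73 in the KO host library and 1.91 in the WT host library, a ratio of the quotients of 0.906 (0.837 to 0.980). A pseudogene named Krt8-ps is annotated in GENCODE M21, and the Krt8 values were whole reads within 0.1 read in both libraries.

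Krt19, a small type I keratin without a long tail domain, and Krt7, a type II keratin of ductal epithelia, were the minor keratins. Krt19 (chromosome 11, 100031636 to 100039492, minus strand) had 271 reads in the KO host library and 100 in the WT host library, a ratio of 3.02 (2.39 to 3.84). Relative to Krt18, Krt19 reads were 0.116 in the KO host library and 0.0603 in the WT host library, 1.92-fold higher (1.51 to 2.46). Genes with 300 to 1000 reads over both libraries varied widely: 12.9% of 2595 were 2-fold or more higher in the KO host library and 19.9% were 2-fold or more lower. Krt7 had 52 reads in the KO host library and was listed at 0 in the WT host library, so no ratio is given. Of 1878 genes with 10 to 100 reads, 463 were listed at 0 in the WT host library (24.7%), so such a value is common in this table.

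Cldn4, which encodes claudin-4, lay well beyond most genes of like depth. It lies on chromosome 5 at 134973973 to 134975789, minus strand (ENSMUSG00000047501), and its span of 1816 bases equals its annotated exons. It had 783 reads and FPKM 18.4 in the KO host library, and 251 reads and FPKM 5.30 in the WT host library. The read ratio was 3.48 (3.01 to 4.03) and the deposited log2 values differed by 1.63. By that difference it ranked 48 from the top among the 6057 genes whose mean log2 value was at least 1. Among 2989 genes with 1000 to 3000 reads, 4.05% were 2-fold or more higher in the KO host library and 7.26% were 2-fold or more lower. The 90th percentile of the log2 read ratio was 0.67, against 1.80 for Cldn4. In the plane of the 2 deposited values, its nearest genes over the 2 libraries were Has2, which makes hyaluronan (distance 0.14), Clcf1, a cytokine of the interleukin 6 family (0.19), and Yod1, a deubiquitinase (0.20).

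Tjp1, the ZO-1 scaffold, was lower in the KO host library. Its gene (chromosome 7, 64945913 to 65177530, minus strand) had 3615 reads in the KO host library and 5958 in the WT host library, a ratio of 0.676 (0.649 to 0.705). Its log2 read ratio of -0.56 lay just below the 10th percentile of genes of like depth, -0.51. The WT host value was 0.297 reads from a whole number, more than rounding allows, which whole-read counting does not give. Because its span is long, the deposited FPKM was under 1 in both libraries (0.668 in the KO host and 0.987 in the WT host), and the deposited difference of -0.25 understates the ratio. The quotient of Cldn4 to Tjp1 reads was 0.217 in the KO host library and 0.0421 in the WT host library, 5.14-fold higher (4.43 to 5.99).

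The adhesion genes were present at low levels. Cdh1 (chromosome 8, 107329983 to 107396879, plus strand) had 201 reads in the KO host library and 134 in the WT host library, a ratio of 1.67 (1.34 to 2.10). Epcam (chromosome 17, 87943407 to 87958558, plus strand) had 151 reads in the KO host library and 55 in the WT host library, a ratio of 3.06 (2.23 to 4.25). These intervals cover counting error only. The Epcam ratio lay inside the 10th to 90th percentile of the 1439 genes with 100 to 300 reads and above 0 in both libraries. Of these genes, 25.8% were 2-fold or more higher in the KO host library and 29.8% were 2-fold or more lower. The Cdh1 ratio lay inside that range for its own read band. At this depth neither difference can be set apart from the variation of other genes.

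**Figure D2:**
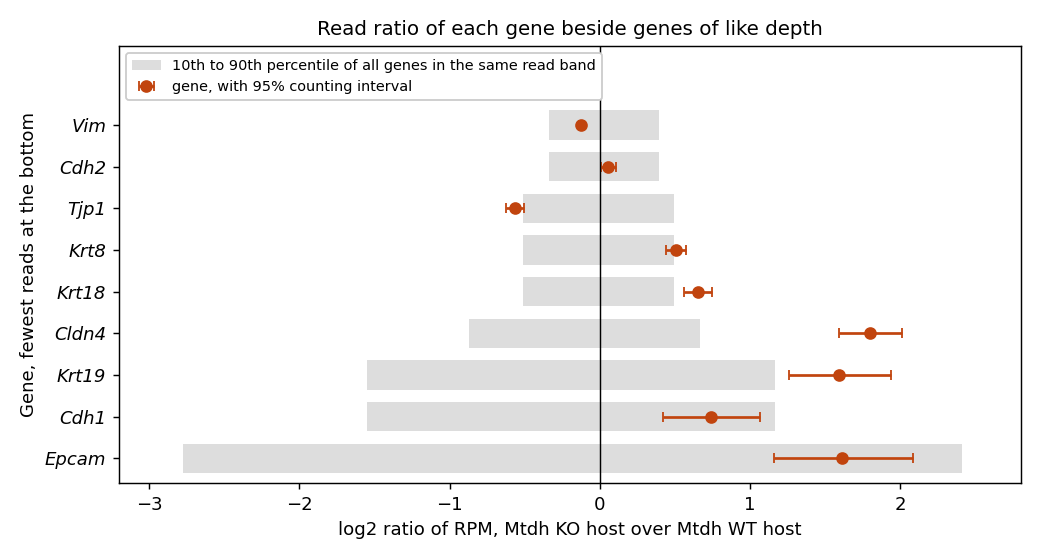
Log2 ratio of RPM, Mtdh KO host over Mtdh WT host, for the 9 genes with 100 or more reads (points, with 95% counting intervals), ordered by depth, over grey bars for the 10th to 90th percentile of all genes in the same read band. Cldn4 at 1.80 and Krt19 at 1.60 lie beyond their bars, Krt8, Krt18 and Tjp1 lie at or just past the ends of theirs, and Epcam, Cdh1, Cdh2 and Vim lie inside.

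The mesenchymal pair was close to even. Vim (chromosome 2, 13578738 to 13587638, plus strand) had 67960 reads and FPKM 326.6 in the KO host library, and 82646 reads and FPKM 356.2 in the WT host library, a ratio of 0.917 (0.908 to 0.926). Like Tjp1, Vim was further from whole reads than rounding allows. It was off by 0.314 reads in the KO host library (rounding 0.236) and 0.427 in the WT host library (rounding 0.287). Cdh2 (chromosome 18, 16721934 to 16942304, minus strand) had 6118 reads in the KO host library and 6562 in the WT host library, a ratio of 1.04 (1.004 to 1.08). Both ratios lay inside the 10th to 90th percentile of genes with 10000 or more reads, -0.34 to 0.40 in log2. Of those 1137 genes, 1.93% were 2-fold or more higher in the KO host library and 0.704% were 2-fold or more lower. The genes nearest to Vim in the plane of the 2 deposited values were mt-Cytb, a mitochondrial cytochrome (distance 0.04), Eef2, a translation elongation factor (0.11), and Gabarap, an autophagy protein (0.25). The quotient of Cdh1 to Cdh2 reads was 0.0329 in the KO host library and 0.0204 in the WT host library, 1.61-fold higher (1.28 to 2.02), which carries the uncertainty of the low Cdh1 reads.

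Setting the keratins against vimentin within each library removes the library total from the comparison. The 4 keratins had 6712 reads in the KO host library and 4931 in the WT host library, which is 9.88 keratin reads for every 100 Vim reads in the KO host library and 5.97 in the WT host library. The ratio of these quotients was 1.66 (95% counting interval 1.59 to 1.72). Krt8 alone gave 1.55 (1.48 to 1.63), Krt18 gave 1.71 (1.61 to 1.83) and Krt19 gave 3.30 (2.61 to 4.19). Cldn4 against Vim gave 3.79 (3.29 to 4.39), and Tjp1 gave 0.738 (0.707 to 0.770). Of these 4 keratins, each of the 3 with reads in both libraries was thus higher against Vim in the KO host library, while Tjp1 was lower. Keratins outside these 4 were not set against Vim.

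Size rules were applied to the 10 genes and to the whole table. Of the 5 genes with a mean deposited log2 value of 1 or more, Cldn4 alone was higher by 1 or more in the KO host library and 0 were lower, against 2.31% higher and 2.64% lower among all 6057 such genes. On the read scale, 9 of the 10 genes had 100 or more reads over both libraries and were above 0 in each. Of these 9, 3 were 2-fold or more higher (Cldn4, Krt19 and Epcam) and 0 were 2-fold or more lower, against 8.39% higher and 11.3% lower among 10647 genes. The median log2 read ratio was 0.65 over the 9 genes and -0.06 over all genes. The 10 genes were put together with earlier results of these libraries known, so this count and median describe the genes and carry no test.

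**Figure D3:**
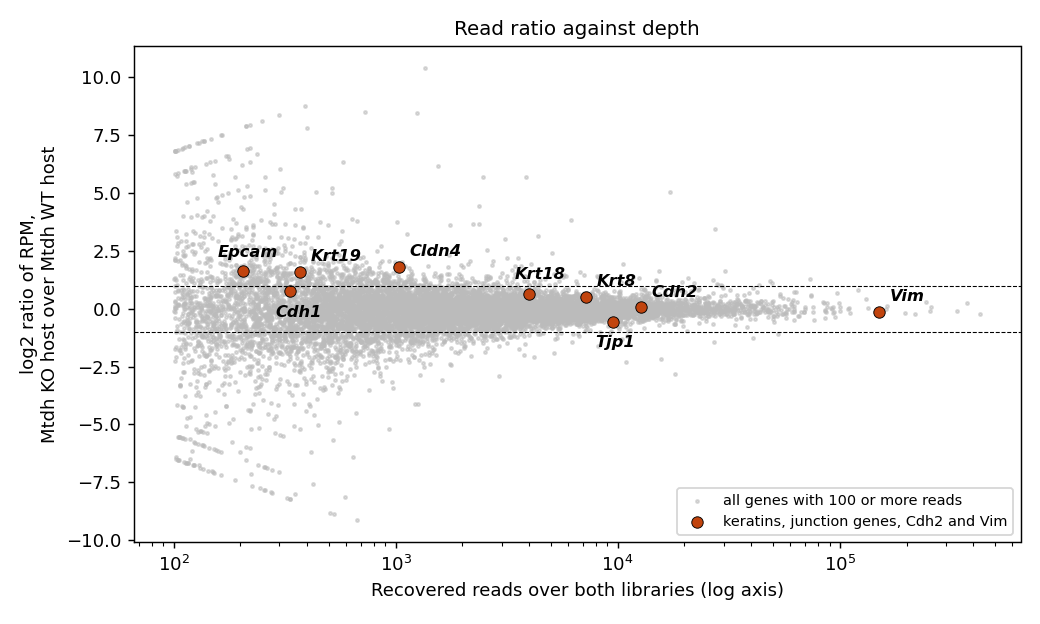
Log2 ratio of RPM, Mtdh KO host over Mtdh WT host, against recovered reads over both libraries (log axis), with all 10647 genes in grey, 9 of the 10 genes in colour, and dashed lines at 2-fold. The grey cloud widens toward low reads, where Epcam, Krt19 and Cdh1 lie, and Cldn4 stands above most of the cloud at its depth.

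Other genes of the same structures went in both directions. Beside the list counts given from here on, 8.39% of all 10647 genes were 2-fold or more higher and 11.3% were lower. The lists are short, so a count of 0 or 1 lies near these shares. Among genes with 100 to 300 reads the shares were larger, 25.8% higher and 29.8% lower. Among 13 other tight junction genes with 100 or more reads, 1 was 2-fold or more higher in the KO host library, 2 were lower and the median log2 read ratio was -0.16. Cldn1, another claudin, had 2772 reads in the KO host library and 6425 in the WT host library, 2.08-fold lower. The Cldn4 to Cldn1 quotient was thus 7.23-fold higher (6.22 to 8.43) in the KO host library. Cldn1 was taken by the size of its ratio as well as by its reads, so this quotient describes the pair and carries no test. F11r, the junction protein JAM-A, had 271 reads in the KO host library and 130 in the WT host library. Magi2, a scaffold, had 118 in the KO host library and 315 in the WT host library, and Cldn12 had 3761 in the KO host library and 5452 in the WT host library. Cldn4 and Cldn1 thus differed in direction.

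Among 9 catenins, nectins and other adherens junction genes, 2 were 2-fold or more higher, 0 were lower and the median was 0.34. Nectin1, an adhesion receptor, had 2539 reads in the KO host library and 1233 in the WT host library, 2.30-fold higher (2.14 to 2.46), while Nectin3 had 1057 in the KO host library and 1889 in the WT host library. Ctnnd1 (p120 catenin), which holds cadherins at the membrane, had 171 reads in the KO host library and 2 in the WT host library, a log2 read ratio of 6.57. The 90th percentile was 2.41 for the 1439 genes with 100 to 300 reads and above 0 in both libraries. Another 159 genes of this depth were listed at 0 in 1 library and are not in that percentile. Values near 0 in 1 library are thus common at this depth. Vcl (vinculin) was at a ratio of 1.27 and Ctnna1 (alpha-catenin) at 0.844. Of 6 desmosome genes, 1 was 2-fold or more higher and 0 were lower, with a median of 0.44. That gene was Pkp2 (plakophilin-2), with 659 reads in the KO host library and 188 in the WT host library, 3.91-fold higher (3.32 to 4.62). Pkp1 was at 0.677, Pkp4 at 1.34 and Dsp, which ties keratins to the desmosome, had 67 reads in the KO host library and 53 in the WT host library. Of 3 other cadherins, Cdh10 was at 2.15, Cdh15 at 0.367 and Cdh24 at 0.863.

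The remaining keratins had few reads. Of 23 other type II keratins 5 were listed and 1 had 100 or more reads, Krt6a, with 14.2 reads in the KO host library and 109.2 in the WT host library. Krt6a has a close copy, Krt6b, which had 31.8 reads in the KO host library and was listed at 0 in the WT host library. The split of fractional reads between them is thus uncertain. Of 26 other type I keratins 2 were listed: Krt10 had 247 reads in the KO host library and 308 in the WT host library, and Krt16 had 164.3 in the KO host library and was listed at 0 in the WT host library. Intermediate filament genes outside the keratins were split: of 6 with 100 or more reads, 3 were above 0 and 3 below in log2 read ratio, and 0 were 2-fold or more higher and 3 lower. Nes (nestin) had 966 reads in the KO host library and 2438 in the WT host library, Lmnb1 (lamin B1) had 911 and 2406 in the KO and WT host libraries, and Nefl (neurofilament light chain) had 143.5 and 753 in the KO and WT host libraries. Lmna (lamin A) was at 1.17.

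Of 6 genes that link filaments to junctions or to other filaments, 1 was 2-fold or more higher and 2 were lower. Ppl (periplakin) had 38 reads in the KO host library and 437.2 in the WT host library, Tchp (trichoplein) had 32.3 in the KO host library and 144 in the WT host library, and Fam83h had 103 in the KO host library and 43 in the WT host library. The large cross-linkers Dst and Macf1 were at 1.12 and 0.871. Genes that act in epithelial transcription, splicing and at the surface were sparse: 9 of 22 were listed and 3 had 100 or more reads and were above 0 in both libraries. Grhl2, an epithelial transcription factor, had 67 reads in the KO host library and 37 in the WT host library, Cd24a was at 1.29 and St14, the protease matriptase, at 0.791. Of 12 mesenchymal genes, 1 was 2-fold or more higher, 1 was lower and the median was 0.00. Fn1 (fibronectin) was at 0.858, Itgb1 at 1.02 and Loxl2 at 1.67. Mmp2, a matrix protease, was 3.23-fold lower, and Pdpn (podoplanin) had 296 reads in the KO host library and 5 in the WT host library.

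**Figure D4:**
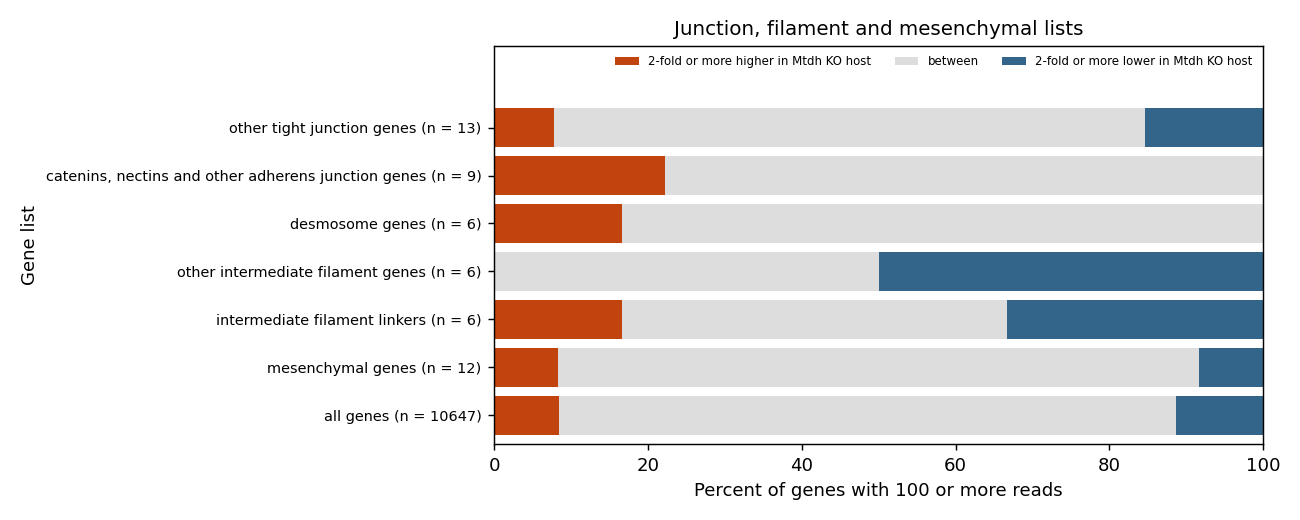
Percent of each gene list shown (genes with 100 or more reads, n beside the name) that was 2-fold or more higher, between, or 2-fold or more lower in the Mtdh KO host library than in the Mtdh WT host library. The lists are those of tight junction, adherens junction, desmosome, other intermediate filament, filament linker and mesenchymal genes. Lists with fewer such genes and the cell marker lists are left out. All genes, at 8.39% higher and 11.3% lower, are the bottom bar. Adherens junction (n = 9) and desmosome genes (n = 6) have none lower and other intermediate filament genes (n = 6) have none higher. In lists this short, a count of 0 lies near the shares of all genes.

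Markers of other cells in the gate are given beside these values, and their part in the results was not tested. The shares over all genes, 8.39% higher and 11.3% lower, apply to these lists too. At low depth, where several of these markers lie, the shares were larger. They were 25.8% higher and 29.8% lower at 100 to 300 reads, and 12.9% higher and 19.9% lower at 300 to 1000 reads. Luminal mammary markers summed to 220.2 RPM in the KO host library and 180.2 in the WT host library. Of 7 with 100 or more reads, 2 were 2-fold or more higher and 1 was lower: Areg, an EGF receptor ligand, had 441 reads in the KO host library and 147 in the WT host library, Ltf had 87 in the KO host library and 26 in the WT host library, Aldh1a3 was at 0.441, Gata3 at 0.582 and Esr1 at 1.26. Basal mammary markers summed to 15.3 RPM in the KO host library and 30.5 in the WT host library, with 3 of 8 listed. Oxtr, one of them, had 108 reads in the KO host library and was listed at 0 in the WT host library. The other listed genes went the opposite way. Acta2 had 249 reads in the KO host library and 697 in the WT host library. Trp63 was listed at 0 in the KO host library and had 99 reads in the WT host library. Keratinocyte markers summed to 10.6 in the KO host library and 21.2 in the WT host library, with 2 of 10 listed. Lgals7 was listed at 0 in the KO host library and had 244 reads in the WT host library. Of the mesothelial markers 1 of 7 was listed, Msln (mesothelin), at 1759 reads in the KO host library and 1872 in the WT host library.

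Fibroblast and pericyte markers were lower in the KO host library, and endothelial markers went both ways. Fibroblast markers summed to 1310 RPM in the KO host library and 2667 in the WT host library, with 4 of 7 genes 2-fold or more lower and 0 higher. Col1a1 had 2059 reads in the KO host library and 16111 in the WT host library, Dcn had 158 in the KO host library and 784 in the WT host library, Dpt had 44 in the KO host library and 322 in the WT host library, Col3a1 was at 0.417 and Ogn at 0.825. Pericyte and smooth muscle markers summed to 91.0 in the KO host library and 423.6 in the WT host library, with 3 of 3 lower: Pdgfrb was at 0.205, Notch3 at 0.221 and Acta2, which is also in the basal list, at 0.398, and Cspg4 was listed at 0 in the KO host library and had 190 reads in the WT host library. Endothelial markers summed to 14.5 in the KO host library and 18.5 in the WT host library, with Pecam1 at 1.11, Plvap at 0.186 and Cdh5 at 146 reads in the KO host library and 1 in the WT host library. Leukocyte markers summed to 177.2 in the KO host library and 161.7 in the WT host library, of which Lyz2, at 3471 and 3504 reads in the KO and WT host libraries, supplied most. Csf1r was at 1.10, Cd68 at 2.37, Fcer1g at 2.52 and Itgam at 0.118, and Ptprc, which encodes the CD45 used for the gate, had 64 reads in the KO host library and 46 in the WT host library. Mtdh itself had 23131 reads in the KO host library and 28376 in the WT host library, a ratio of 0.909 (0.893 to 0.925), and the injected cells carry the gene, so its level is a weak check of the host genotype.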

How the data were processed

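RNA-seq of CD45-negative cells from Py8119 tumours was analysed, with 1 library per host genotype. The authors deposited 1 table of log2 values, log2(FPKM + 1) by its name. Per the submitters' processing notes, STAR 2.7.8a, Partek and build mm39 were used; the sources used here name no annotation release, strand setting or duplicate handling. The deposited log2 values, turned back to FPKM and multiplied by the length column, summed to 1000000 in each library, and that length equals the genomic span in 100% of rows, so long genes have low FPKM and the added 1 shrinks their differences.

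Reads were recovered because low values fall on whole multiples of 1 step: 23381849 reads for the KO host library and 26069373 for the WT host library, with 83.4% and 84.9% of values under 1000 reads whole within 0.1 read. Values below 0.5 reads were taken as listed at 0 and given no ratio. Ratios are of RPM (recovered reads scaled to 1000000 per library), KO host over WT host, with exact conditional binomial (Clopper-Pearson) 95% intervals, and ratios of quotients have exact conditional odds-ratio intervals (scipy 1.17.1). Reads copied by PCR and not tagged by molecule are not independent, so intervals cover counting error only. Exon lengths came from GENCODE M21 (basic set, 99.9% of genes matched by ID), which is not the authors' build and gave lengths only. Without replicates no p-value was computed. The recovery was tested on simulated data in which every count was whole, so the test does not cover the fractional reads of the deposited values.

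The 10 genes and the lists were chosen with earlier results of these data known. From each list the text names the 3 genes with the largest log2 read ratio in either direction and the 2 with the most reads. These come from genes with 100 or more reads. Also named are genes with 100 or more reads that were listed at 0 in 1 library. A gene that this rule takes is not reported here. Ptprc was added as the gene of the gate. Trp63 and Krt6b, with fewer than 100 reads, were added beside other genes of their lists. The promoter motifs were chosen after the sequences had been seen. Alternatives were another added value (0.1 or 5), no filter, the read scale, median scaling, quantile normalization and exon length.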

Additional observations from a re-analysis of the deposited data

How the results depend on the processing

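Every one of the 58 values of single genes under alternatives kept the sign of its deposited difference, and no called value was reversed. Most of these signs were fixed in advance. Another added value, the read ratio and exon length cannot change the sign of a difference between 2 libraries. Only division by the median ratio and quantile normalization could have done so. The count of genes higher by 1 or more, 1 in the deposited values, was 3 on the read scale, 3 after division by the median ratio and 3 per exon length (an alternative chosen after seeing the data), and the count lower was 0 throughout. The median difference of the 10 genes, 0.24, was 0.58 with 0.1 added, 0.056 with 5 added, 0.65 on the read scale and 0.72 after division by the median ratio (both over 9 genes, since Krt7 has no ratio), 0.25 under quantile normalization, 0.56 per exon length and 0.48 over the 5 genes with a mean of 1 or more. The added value shrinks differences of low genes by construction. The keratin to Vim ratio, 1.66, was 1.84 without Krt8 and between 1.62 and 1.71 under the other alternatives; the cause was not tested. Vim was at -0.33 under quantile normalization, against -0.12 as deposited. Over all genes the counts were 893 higher and 1204 lower on the read scale, against 140 and 160 in the deposited values. Depth limits Krt7, Epcam, Cdh1 and Krt19, whose totals were 52, 206, 335 and 371 reads. No paired analysis was possible because each host genotype has 1 library. For the same reason no replicate could be left out.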
